A study of Mus musculus with 6 samples.

Results

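The genes described here are 49 genes of the actin and myosin contractile apparatus, of smooth muscle and of the intermediate filaments, taken from a list of gene symbols. They were read on 6 mouse arrays, on which 20657 named genes had a value. A probe was assigned to a gene through its transcript accession, and all 49 genes had a probe. Of them, 44 were bright enough to be tested, among 15622 tested genes in all.

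The arrays held total RNA, labelled with Cy3, of cells that had been sorted from adult mouse liver for the tetraspanin CD63, a membrane protein of late endosomes and exosomes, and then cultured. In the DDC injury group the livers had been injured with DDC, a porphyrinogenic compound that is usually fed and causes cholestatic damage, and in the no-injury group they had not. There were 3 arrays in each group. Cells of both groups were grown in DMEM/F12 with serum, HGF, EGF, insulin-transferrin-selenium, dexamethasone and nicotinamide, so the values describe cultures. VEGF and bFGF were added to some cultures whose names match no sample title, so that addition could not be assigned to a group. No sex or strain is given in the sources used here. The design text counts 6 cell lines, and the labels do not say whether the samples came from separate animals, so p-values measure only the spread between these samples, which may be technical.

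Actin filaments and myosin II generate tension in every cell, with cytoplasmic actins and non-muscle myosins in most cells and dedicated smooth muscle forms in contractile ones. Tropomyosins, caldesmon and calponins lie along the filament and regulate its use by myosin, while filamins, actinins, vinculin and zyxin tie filaments to each other and to adhesions. Small GTPases and the ROCK kinases switch the system on. In liver, alpha smooth muscle actin (Acta2) is the classical marker of activated hepatic stellate cells and myofibroblasts, desmin (Des) and glial fibrillary acidic protein (Gfap) are intermediate filament proteins of stellate cells, and vimentin (Vim) is that of mesenchymal cells in general.

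Levels are log2 of the background-corrected signal minus the array's 75th percentile, so a level of 0 equals that percentile. They are always given in the order of replicates 1, 2 and 3, and levels of different genes are not comparable. The arrays' 75th percentiles ran from 1441 to 2271 intensity units, 65% to 74.8% of spots were well above background by the scanner software's flag, and 0 spots were saturated. DDC injury replicate 1 was scanned by itself, replicates 2 and 3 together, and the 3 no-injury arrays together, so scan and group cannot be told apart. No-injury replicates 1 and 3 did not differ detectably beyond the noise of repeated spots (chi-square of 142.8 on 136 degrees of freedom, p = 0.328). The check used 137 probes with 10 spots each and a mean level above 0, so dimmer probes were not covered. Every other pair of arrays within a group did differ on these probes, with chi-square of 258.6 to 3697.7. The mean of no-injury replicates 1 and 3 was used as 1 sample for all genes, dim ones included. This leaves 3 DDC injury samples against 2 no-injury samples. Cd63 itself differed by -0.11 ± 0.17 (SE, adjusted p = 0.66 in limma) and was well above background on all 6 arrays.

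The members did not move as a block. The cytoplasmic actins Actb and Actg1, the tropomyosins Tpm1 and Tpm3, filamin C, vinculin, Pdlim2, Fhl2 and Rhoa were higher in cells from DDC-injured liver, by 1.36-fold to 3.50-fold. Synemin (Synm), non-muscle myosin IIB (Myh10), Fhl1, tensin 1 (Tns1), Rhob and the myosin light chain kinase gene Mylk were lower, by 1.66-fold to 12.6-fold. Each fold is that of the gene's brightest probe. The smooth muscle genes Acta2, Tagln, Cnn1, Myl9 and Actg2 did not pass the test, and on none of the arrays were Myh11, Lmod1 and Des well above background. In these bulk samples fewer cells of a type and less RNA per cell cannot be told apart.

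With limma's test and Benjamini-Hochberg adjustment over all 15622 genes at a threshold of 0.05, 15 of the 44 tested members were called, or 34.1%, against a background of 33.4% of all tested genes. Of these, 9 were higher, or 20.5%, against 17.7% of all genes, and 6 were lower, or 13.6%, against 15.8%. The shares among the members thus lay near those of all genes. The 3 DDC injury arrays lay wholly above or wholly below the 3 no-injury arrays in 29 of the 44, or 65.9%, against 63.1% of all genes. The median difference of the members was 0.00 on the log2 scale, beside -0.07 for all genes, and the median size of a difference was 0.49, beside 0.52. The split of 9 higher and 6 lower became 4 and 5 with quantile normalization. There 9 of 44 members were called, a smaller share than the 33.5% of all genes. With the authors' own values it was 6 and 6, where 35.3% of all genes were called. Without DDC injury replicate 3, 8 of 44 members were called, against 21.7% of all genes. Leaving out no-injury replicate 2 leaves 1 no-injury sample, assumed to vary like the others, and most calls were lost there, of members and of all genes alike.

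**Figure D1:**
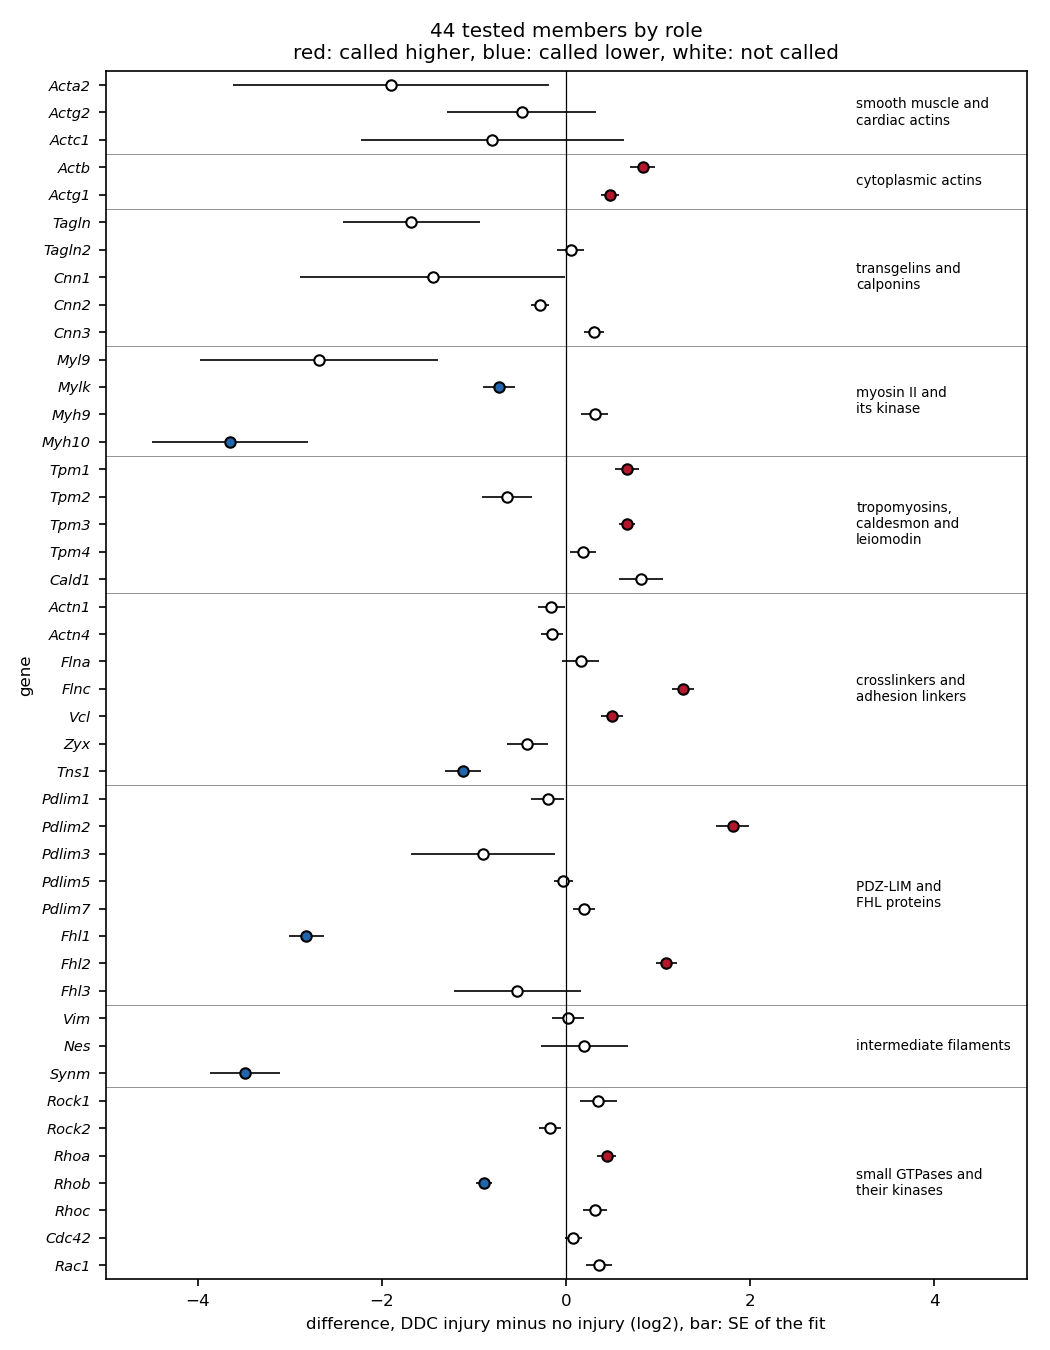
Difference between DDC injury and no injury for the 44 tested members, on the log2 scale, one row per gene grouped by role, with the standard error of the fit as a bar. The 9 genes called higher (red) and the 6 called lower (blue) are spread over the roles, and the widest bars belong to Acta2, Cnn1, Actc1 and Myl9, none of them called.

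Many genes of the contractile apparatus are known targets of serum response factor (SRF), which binds a short element named the CArG box. Promoter windows from 250 bases before to 50 bases after the transcription start, from the RefSeq table of build GRCm38.p6, were searched for the box on both strands. Only its exact form was counted, CC and GG with nothing but A and T between them, at the length printed in capitals below. Sites that depart from this form were not counted. Windows were found for 42 of the 49 members, and 7 of these, or 16.7%, held a box, beside 488 of 27025 genes in the whole table, or 1.81%. Counted by window, the shares were 8 of 49, or 16.3%, and 535 of 32851, or 1.63%. The members Actb, Actg2, Tagln, Myh11, Pdlim2, Rock1 and Rac1 were without a window there. The 8 sites are printed 5′ to 3′ on the strand of the gene with the box in capitals, because they set genes that were called higher beside genes that were called lower or not at all.
Actg1: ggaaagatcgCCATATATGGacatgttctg
Vcl: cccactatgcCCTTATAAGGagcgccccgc
Fhl2, first window: gcgcgtgtgtCCTTATATGGtcaaatgact
Fhl2, second window: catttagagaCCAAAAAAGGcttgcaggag
Fhl1: ccttggatcaCCTAAAATGGttaagaattt
Cnn2: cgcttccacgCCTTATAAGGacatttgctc
Myl9: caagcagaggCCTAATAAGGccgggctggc
Actc1: gctaaggcgaCCAAATAAGGcaaggtggca

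In GRCm38.p6 the printed stretches lie at chr11:120348566-120348595 on the minus strand for Actg1, chr14:20929161-20929190 on the plus strand for Vcl, and chr1:43163973-43164002 and chr1:43196838-43196867, both minus, for Fhl2. Those of the other genes lie at chrX:56779571-56779600 (plus) for Fhl1, chr10:79988534-79988563 (plus) for Cnn2, chr2:156775293-156775322 (plus) for Myl9 and chr2:114052903-114052932 (minus) for Actc1. The box began 31 to 227 bases before the annotated start, nearest in Fhl2 and farthest in Vcl. Of these 7 genes Actg1, Vcl and Fhl2 were called higher, Fhl1 was called lower, and Cnn2, Myl9 and Actc1 were not called. A match describes the letters in the window and says nothing of binding in these cells.

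The 2 cytoplasmic actins, which build the filaments of every non-muscle cell, were both higher after DDC injury. Actb, beta-actin, measured 4.68, 4.96 and 4.65 on the DDC injury arrays and 3.94, 3.95 and 3.88 on the no-injury arrays. All 3 injury arrays stood above all 3 no-injury arrays, with replicate 2 the highest. The difference was 0.83 ± 0.14 (SE), or 1.78-fold, with an adjusted p of 0.0163 in limma. Actg1, gamma-actin, measured 5.27, 5.23 and 5.38 against 4.86, 4.80 and 4.80, again without overlap, and differed by 0.48 ± 0.10 (limma adjusted p = 0.0294). Of the other 3 tested Actg1 probes none was called, with differences of 0.07, 0.35 and 0.46. The call of Actg1 was lost without DDC injury replicate 3 (0.43, adjusted p = 0.0745), with quantile normalization (0.25, adjusted p = 0.203), with the authors' values (0.27, adjusted p = 0.247), with the mean of its probes (0.40, adjusted p = 0.118) and without the filter on dim probes (adjusted p = 0.0636).

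The 3 smooth muscle and cardiac actins were tested, and none was called, nor did any have an unadjusted p under 0.05. Acta2 measured -7.36, -3.48 and -2.05 on the DDC injury arrays and -3.03, -2.02 and -2.52 on the no-injury arrays. DDC injury replicate 1 stood far below every other array, replicate 2 slightly below the no-injury arrays, and replicate 3 among them, so the groups overlapped. The difference was -1.90 ± 1.72 (SE, limma adjusted p = 0.453), and without replicate 1 it was -0.37 (adjusted p = 0.654). The Acta2 probe was spotted 10 times on each array and was well above background on all 6.

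Actc1, the cardiac actin, measured -9.73, -5.95 and -5.98 against -6.90, -5.65 and -7.46. Here replicate 1 was not well above background, while the other 2 injury arrays lay within the no-injury range. Its difference of -0.80 ± 1.43 (limma adjusted p = 0.701) became 0.45 without replicate 1. Actg2, the smooth muscle gamma-actin, measured -7.44, -7.95 and -5.60 against -7.19, -6.11 and -6.68, with injury arrays both above and below the no-injury range, and differed by -0.48 ± 0.81 (limma adjusted p = 0.689). Actin genes are similar in sequence, and how far a probe of one also binds RNA of another was not tested.

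Among the transgelins and calponins, small actin-binding proteins that mark smooth muscle (Tagln, Cnn1) or are widespread (Tagln2, Cnn2, Cnn3), none of the 5 was called, while 1 was higher and 1 lower at an unadjusted p under 0.05. Tagln, also named SM22-alpha, measured -5.49, -3.63 and -3.33 against -2.93, -2.26 and -2.44. All 3 injury arrays were below all no-injury arrays, replicate 1 the farthest. The difference was -1.68 ± 0.74 (SE, limma adjusted p = 0.158). Without replicate 1 the remaining injury arrays were close together, and the smaller difference of -1.01 passed the threshold (adjusted p = 0.034). Cnn1, the smooth muscle calponin, measured -10.06, -5.91 and -6.29 against -6.08, -5.59 and -6.59, so that replicate 1 was the lowest of all arrays and not well above background, and the other 2 lay within the no-injury range. Its difference was -1.45 ± 1.44 (limma adjusted p = 0.493), and -0.14 without replicate 1.

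The widespread members of these families moved little. Cnn2 measured 1.76, 1.85 and 1.89 against 2.06, 2.13 and 2.14 and differed by -0.28 ± 0.10 (limma adjusted p = 0.0934). Cnn3 ran the other way, at 4.32, 4.47 and 4.42 against 4.08, 4.16 and 4.02, a difference of 0.30 ± 0.11 (limma adjusted p = 0.102). On both of these probes the arrays of the groups did not overlap. A second Cnn2 probe did overlap and differed by -0.01 (limma adjusted p = 0.942), and a second Cnn3 probe differed by 0.29 and was not called. The difference of Cnn2 was -0.04 with normexp and -0.09 in the authors' values. The call of Cnn3 was gained with normexp background correction (0.49, adjusted p = 0.0268) and with the authors' values (0.36, adjusted p = 0.0415). Tagln2 differed by 0.05 ± 0.15 (limma adjusted p = 0.825), with injury arrays on both sides of the no-injury arrays.

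**Figure D2:**
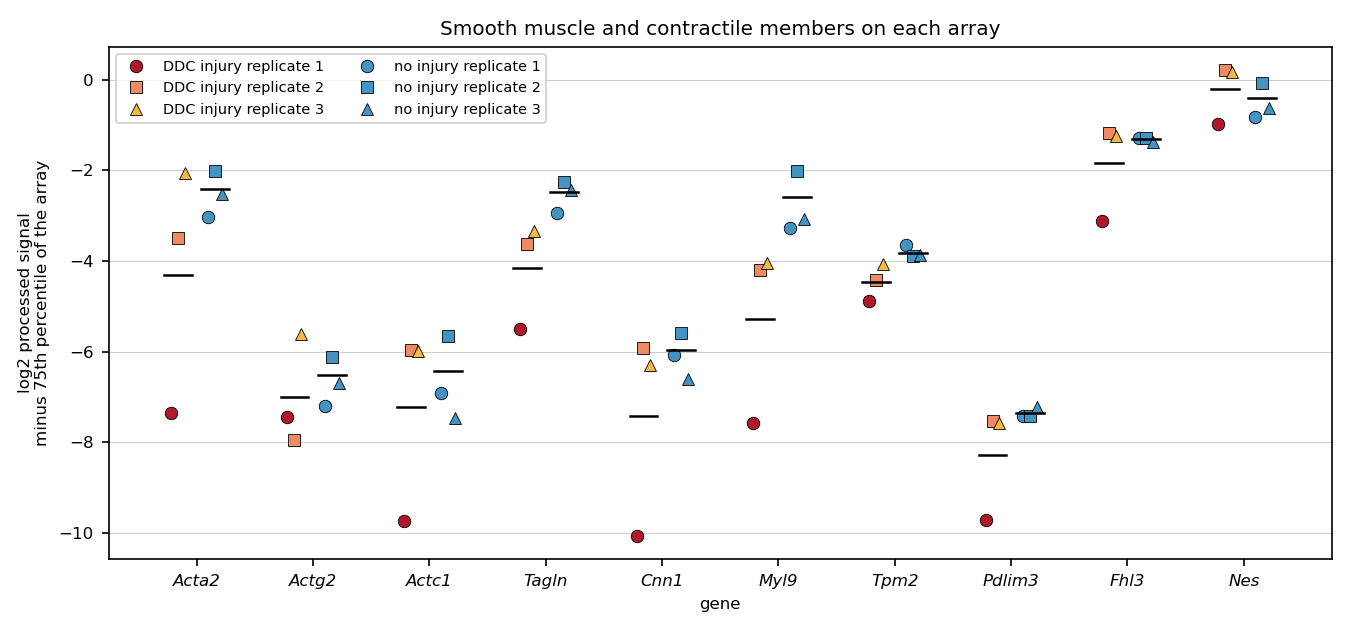
Level of 10 smooth muscle and contractile members on each of the 6 arrays, as log2 processed signal relative to the 75th percentile of the array, with a line at the mean of each group (no-injury replicates 1 and 3 averaged first). DDC injury replicate 1 (dark red circles) is the lowest point for Acta2 at -7.36, Cnn1 at -10.06 and Myl9 at -7.57, while the other DDC injury arrays lie nearer the no-injury arrays.

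DDC injury replicate 1 was at least 2-fold below both other DDC injury arrays in 8 of the 43 tested members with a value on all 3, or 18.6%, against 14.1% of all genes. These were Acta2, Actc1, Cnn1, Myl9, Tagln, Pdlim3, Fhl3 and the intermediate filament gene Nes. Among genes that the flag passed on all 6 arrays the count was 4 of 37, or 10.8%, against 8.07%, and the 4 were Acta2, Tagln, Fhl3 and Nes. Both shares lay near those of all genes. It was at least 2-fold above both in 1 member, Myh10, or 2.33%, against 1.35%. On that array the lowest signal of a probe well above background lay at -7.82. Of these 8 members Actc1, Cnn1 and Pdlim3 were below it, and with Myl9 they were not well above background there, so their values on that array are uncertain.

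How far replicate 1 fell depended on the background correction. Acta2 was 4.59 log2 units below the mean of replicates 2 and 3 with the processed signal (difference of -4.59), and the difference was -2.40 with normexp and -2.59 in the authors' values. For Cnn1 the same 3 differences were -3.96, -1.04 and -0.87, and for Actc1 -3.77, -1.10 and -1.02. For nestin they were -1.18, -1.16 and -1.11. With normexp and with the authors' values 5 of 43 members remained at least 2-fold below, Acta2, Tagln, Myl9, Fhl3 and Nes. Of all genes 5.64% and 3.14% were so. With quantile normalization 8 of 43 members were, against 8.45% of all genes. In these settings the share of the members was larger than that of all genes, and the excess was not tested. These settings for the array-by-array count were chosen after the values had been seen.

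**Figure D3:**
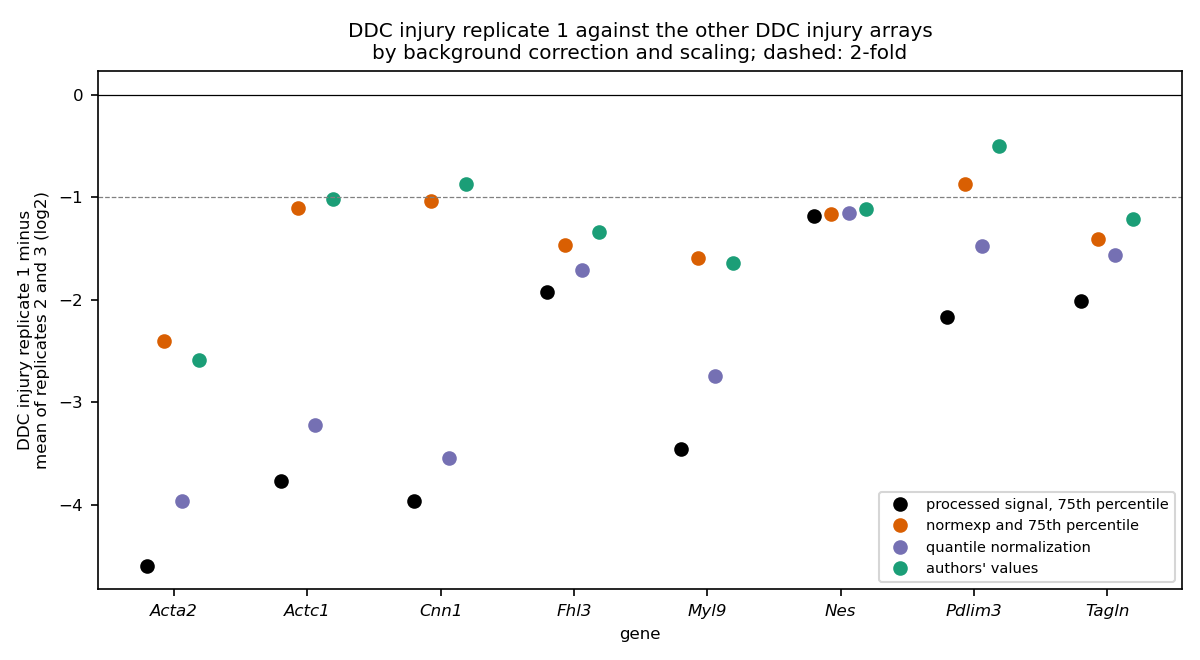
DDC injury replicate 1 minus the mean of DDC injury replicates 2 and 3, on the log2 scale, for the 8 members at least 2-fold below both, under 4 ways of correcting and scaling the signal. All 8 stay below 0, with Acta2 at -4.59 to -2.40, whereas Cnn1 and Pdlim3 rise above the dashed 2-fold line in the authors' values.

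Markers of cells that carry these genes were read on the same arrays. Of the 6 hepatic stellate cell markers (Lrat, Reln, Hand2, Ngfr, Pdgfrb, Des), Reln, Hand2 and Des were well above background on no array. Their summed signal, as a multiple of the 75th percentile, was 0.0163 on DDC injury replicate 1, 0.0736 and 0.0835 on replicates 2 and 3, and 0.0479 to 0.0627 on the no-injury arrays. DDC injury replicate 1, where Acta2 was lowest, thus had the lowest sum of the 6 arrays. On that array only Ngfr, at -6.54, was well above background, so most of the list was at background there. Neither Ngfr nor Pdgfrb was called (limma adjusted p = 0.712 and 0.966), and Lrat was not tested. DDC injury replicate 1 had the lowest sum for 4 other lists as well. These were endothelium, at 0.168 against 0.335 to 0.493 on the other arrays, and glia, at 0.128 against 0.134 to 0.269. The others were leukocytes, at 2.79 against 2.86 to 6.5, and mesothelium, at 22.3 against 22.6 to 27.9. Most of the leukocyte sum was Cd14 and nearly all of the mesothelium sum was Msln. Neither gene was called (limma adjusted p = 0.226 and 0.467). Of the other mesothelium markers Wt1 and Upk3b were called lower after injury (limma adjusted p = 0.0101 and 0.0265). Gpm6a was not called (limma adjusted p = 0.0538), at -2.67 on replicate 1 against -6.89 and -5.89 on the other DDC injury arrays. The part of these markers in the result was not tested. The 6 smooth muscle markers (Myh11, Cnn1, Smtn, Lmod1, Actg2, Des), 5 of them members, summed to 5.84 to 6.93 after DDC injury and 2.31 to 2.42 without, nearly all of it smoothelin (Smtn), which rose by 1.43 (limma adjusted p = 0.00337). Of this list Myh11, Lmod1 and Des were well above background on no array, and Cnn1 and Actg2 on 5 arrays each. The 6 myofibroblast and portal fibroblast markers were well above background on all arrays and summed to 32.2 to 33.3 and to 30.5 to 32.5, most of it Fbln2. The striated muscle markers summed to 1.81 to 2.86 and to 0.70 to 0.735, nearly all of it Tnnt2 (1.89, limma adjusted p = 0.0088). The others did not rise. Acta1 was called lower (-1.37, limma adjusted p = 0.0285). Myod1, Myog and Myh6 were not called, at -0.75, -0.50 and -1.53 (limma adjusted p = 0.677, 0.762 and 0.336), and Ckm was not tested. The 5 biliary markers were well above background on every array, at 26.5 to 33 after injury and 40.6 to 42.5 without. Of them Cdh1, Sox9 and Epcam were called lower, with differences of -0.97, -1.57 and -2.58 (limma adjusted p = 0.0055, 0.0194 and 0.00426), and the keratins Krt19 and Krt7 were not called, at 0.37 and 0.16 (limma adjusted p = 0.243 and 0.468). The 4 hepatocyte markers summed to 10.9 to 17.6 and 29.5 to 33.7. After injury most of the sum was Hnf4a, which was not called (-0.09, limma adjusted p = 0.747), while Alb, Apoa1 and Ttr were called lower (limma adjusted p = 0.00575, 0.00249 and 0.0118).

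Of the 5 myosin II genes and their kinase, 2 were lower and none was higher, also at an unadjusted p under 0.05. Myh10, the heavy chain of non-muscle myosin IIB, measured -3.75, -6.06 and -6.16 on the DDC injury arrays and -1.68, -1.68 and -1.64 on the no-injury arrays. All injury arrays were below, and here replicate 1 was the nearest to the no-injury arrays. The difference was -3.65 ± 0.85 (SE), or 12.6-fold lower (limma adjusted p = 0.0364). It was -2.10 with normexp, and -4.44 without replicate 1 (adjusted p = 0.00162). The call was lost without replicate 2 (-3.29, adjusted p = 0.083) or 3 (-3.24, adjusted p = 0.094), with quantile normalization (-3.62, adjusted p = 0.053), and without the filter on dim probes (adjusted p = 0.0524).

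Myh9, the heavy chain of non-muscle myosin IIA, measured 5.08, 5.45 and 5.42 against 5.04, 5.01 and 4.96. The injury arrays all lay above, replicate 1 by little, and the difference of 0.31 ± 0.15 did not pass (limma adjusted p = 0.199) unless replicate 1 was left out. Mylk, whose product phosphorylates the regulatory light chain, measured -2.05, -2.46 and -2.13 against -1.44, -1.55 and -1.39, with no overlap. It fell by 0.73 ± 0.17 on the log2 scale (limma adjusted p = 0.0354), a call that was lost without DDC injury replicate 3 (adjusted p = 0.0821), with all 6 arrays counted and the scan as a random block (adjusted p = 0.0501) and without the filter on dim probes (adjusted p = 0.0597), and a difference that was -0.44 in the authors' values.

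Myl9, a regulatory light chain of smooth muscle and non-muscle myosin, measured -7.57, -4.19 and -4.05 against -3.26, -2.02 and -3.06. Every injury array was below every no-injury array, and replicate 1 was the lowest and not well above background. The difference of -2.68 ± 1.29 did not pass (limma adjusted p = 0.185), and it was -1.53 without replicate 1 (adjusted p = 0.0627). Myh11, the smooth muscle heavy chain, was well above background on no array, at -9.50, -8.10 and -7.91 against -9.46, -9.43 and -8.62, and was not tested.

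Tropomyosins are coiled coils that run along the actin filament, and their genes give many isoforms. Tpm3 measured 5.28, 5.34 and 5.32 against 4.61, 4.70 and 4.62, tight in both groups and without overlap. It was higher by 0.66 ± 0.09 (SE), or 1.58-fold (limma adjusted p = 0.0113). The call was lost with quantile normalization (0.42, adjusted p = 0.0505), with the authors' values (0.43, adjusted p = 0.0821) and with the mean of its probes (0.10, adjusted p = 0.772). A second Tpm3 probe, for another transcript, differed by 0.49 and was not called.

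Tpm1 had 5 tested probes that did not agree. The probe that represents it (transcript NM_001164249) measured 4.08, 3.77 and 4 against 3.31, 3.29 and 3.26 and was higher by 0.66 ± 0.13, or 1.58-fold (limma adjusted p = 0.0252), a call lost without DDC injury replicate 3 (adjusted p = 0.0769) and with quantile normalization (0.52, adjusted p = 0.078). Both probes of transcript NM_001164248 differed far more. The first measured 0.66, 0.07 and 0.55 against -1.91, -1.93 and -1.86, a difference of 2.34 ± 0.21, and the second differed by 2.31 ± 0.23 (limma adjusted p = 0.00376 and 0.00468 over all probes). The probe of NM_001164255 ran the other way, at -1.77, -1.62 and -1.40 against -0.97, -0.93 and -1, lower by 0.64 on the log2 scale (difference of -0.64 ± 0.15, limma adjusted p = 0.0327). That of NM_001164251 differed by -0.40 and was not called. So probes for different transcripts of one gene were called in opposite directions, each with arrays that did not overlap.

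Tpm2, found at high levels in smooth muscle, measured -4.88, -4.42 and -4.07 against -3.64, -3.88 and -3.86. On this probe the injury arrays were all lower, and the difference of -0.64 ± 0.27 did not pass (limma adjusted p = 0.143). A second Tpm2 probe ran the other way, at 0.35 (limma adjusted p = 0.583). With the mean of both probes the difference was -0.15 (adjusted p = 0.783). Tpm4 differed by 0.18 ± 0.14 (limma adjusted p = 0.415). Caldesmon (Cald1) measured 2.85, 2.16 and 2.70 against 1.75, 1.82 and 1.67, with no overlap, and its difference of 0.81 ± 0.24 did not pass (limma adjusted p = 0.0697). It was called without DDC injury replicate 2 (1.01, adjusted p = 0.00964) and with all 6 arrays counted (0.82, adjusted p = 0.0194). Leiomodin 1 (Lmod1), a smooth muscle actin nucleator, was well above background on no array.

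**Figure D4:**
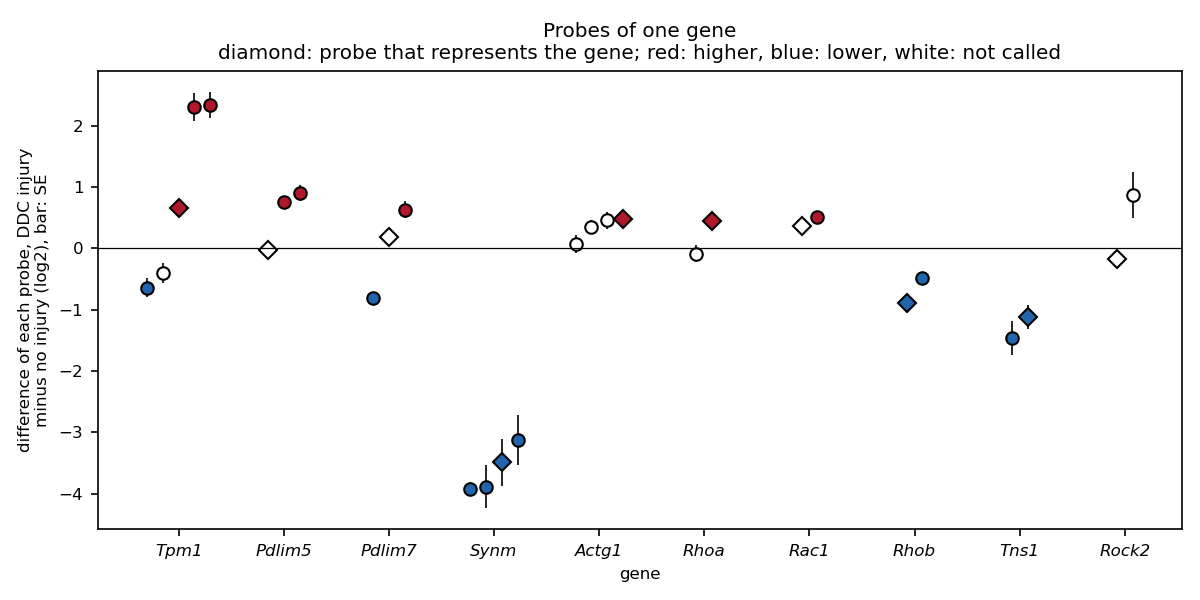
Difference between DDC injury and no injury for each tested probe of 10 members, on the log2 scale with the standard error as a bar, with a diamond for the probe that represents the gene. The probes of Tpm1 run from -0.64 to 2.34 and those of Pdlim7 from -0.81 to 0.63, while all 4 probes of Synm lie between -3.92 and -3.13.

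Among the proteins that cross-link filaments or tie them to adhesions, 2 of 7 tested were higher and 1 was lower. Filamin C (Flnc), the muscle-enriched filamin, measured 3.26, 3 and 3.21 on the DDC injury arrays and 1.87, 1.89 and 1.90 on the no-injury arrays. Both groups were tight and far apart, and the difference of 1.27 ± 0.12 (SE) was 2.41-fold (limma adjusted p = 0.00479). Its widespread relative Flna measured 5.08, 5.58 and 5.58 against 5.25, 5.27 and 5.24, with replicate 1 below and the other injury arrays above, and differed by 0.16 ± 0.20 (limma adjusted p = 0.589).

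Vinculin (Vcl), which links talin to actin at adhesions, measured 3.39, 3.18 and 3.17 against 2.75, 2.77 and 2.70. The groups did not overlap, and it was higher by 0.50 ± 0.12, or 1.41-fold (limma adjusted p = 0.0387). This call was lost with normexp (0.39, adjusted p = 0.0837), quantile normalization (0.35, adjusted p = 0.104), the authors' values (0.26, adjusted p = 0.192), no filter on dim probes (adjusted p = 0.0748) and without DDC injury replicate 3 (adjusted p = 0.0783). Its second probe differed by 0.47 and narrowly failed (limma adjusted p = 0.0513).

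Tensin 1 (Tns1), a protein of fibrillar adhesions, went down, at 3.46, 3.98 and 3.52 against 4.84, 4.75 and 4.76. All injury arrays were lower, and the difference was -1.12 ± 0.20, or 2.17-fold (limma adjusted p = 0.0185). Its second probe was lower too, with a difference of -1.46 (limma adjusted p = 0.0219), and the gene's call was lost without DDC injury replicate 3 (-1.05, adjusted p = 0.0614). The actinins Actn1 and Actn4, which bundle filaments, differed by -0.16 and -0.15, and zyxin (Zyx), a mechanosensitive adhesion protein, by -0.42 (limma adjusted p = 0.476, 0.416 and 0.221). For Actn4 the spot of DDC injury replicate 3 was left out as an outlier. Actn2, the striated muscle actinin, was well above background on no array.

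The PDZ-LIM and FHL proteins are adaptors that sit on actin fibres and Z-discs, and several also enter the nucleus. Of the 8, 2 were higher and 1 was lower. Pdlim2 measured 1.14, 0.66 and 0.94 against -0.95, -1 and -0.63, well apart. It was higher by 1.81 ± 0.18 (SE), or 3.50-fold (limma adjusted p = 0.00528). This was the largest rise among the called members by representing probe, though other probes of Tpm1 rose more, by 2.34 and 2.31. Fhl2, a co-regulator of transcription with a promoter CArG box in 2 of its windows, measured 2.71, 2.48 and 2.63 against 1.53, 1.52 and 1.52. It was higher by 1.09 ± 0.11, or 2.13-fold (limma adjusted p = 0.00558).

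Fhl1, the main FHL protein of striated muscle, went the opposite way, at -6.91, -7.44 and -7.16 against -4.4, -4.34 and -4.31. All injury arrays were far below, and 2 of the 3 were well above background. The difference was -2.82 ± 0.19, or 7.08-fold lower (limma adjusted p = 0.00214). Its call stood in all 15 alternatives in which it was tested, though the difference was -0.86 with normexp and -1.45 in the authors' values. Fhl3 measured -3.12, -1.17 and -1.23 against -1.28, -1.28 and -1.37, with only replicate 1 apart. It differed by -0.53 ± 0.69 (limma adjusted p = 0.599), and a second probe by 0.38 (limma adjusted p = 0.678).

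Pdlim3, an adaptor of muscle Z-discs, was not well above background on any DDC injury array and was so on all 3 no-injury arrays, at -9.71, -7.52 and -7.57 against -7.42, -7.42 and -7.21. It was tested only because of the no-injury arrays, and the fit did not call it (adjusted p = 0.435 in limma). Pdlim1 differed by -0.20 (limma adjusted p = 0.456), the representing probe of Pdlim5 by -0.03 (adjusted p = 0.831) and that of Pdlim7 by 0.19 (adjusted p = 0.273). Both genes have further probes that were called. The pair of Pdlim5 probes for transcript NM_019809 were higher by 0.75 and 0.90 (limma adjusted p = 0.00781 and 0.0114), the first at -4.79, -4.69 and -4.73 against -5.36, -5.49 and -5.60. Pdlim7 had a probe that was lower, with a difference of -0.81 (limma adjusted p = 0.00706), and another, of transcript NM_026131, that was higher by 0.63 (limma adjusted p = 0.0277).

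Of the 3 intermediate filament genes tested, 1 was called, synemin (Synm), which co-assembles with desmin and vimentin and links them to the actin system. It measured -4.01, -5.06 and -4.04 on the DDC injury arrays and -0.83, -0.89 and -0.89 on the no-injury arrays. The groups were about 3 log2 units apart or more, with replicate 2 the lowest. The difference was -3.49 ± 0.38 (SE), or 11.2-fold lower (limma adjusted p = 0.00604). The other 3 tested probes were lower as well, with differences of -3.89, -3.92 and -3.13, while a probe of transcript NM_183312 was well above background on no array.

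Its usual partners gave no call. Vimentin measured 4.17, 4.4 and 4.66 against 4.4, 4.4 and 4.35, with injury arrays below, level with and above the no-injury arrays, and differed by 0.02 ± 0.17 (SE, limma adjusted p = 0.939). Nestin (Nes), a filament protein of progenitor and mesenchymal cells, measured -0.98, 0.21 and 0.18 against -0.82, -0.08 and -0.62. Replicate 1 was the lowest of all arrays and replicates 2 and 3 the highest, and the difference was 0.20 ± 0.47 (limma adjusted p = 0.772). Desmin was well above background on no array, at -9.52, -7.86 and -7.73 against -8.67, -8.92 and -8.15. Gfap was well above background on 1 array of each group, at -8.94, -8.74 and -7.10 against -7.80, -6.20 and -9.46, and neither was tested.

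Small GTPases set actin tension and shape, with the product of Rhoa driving stress fibres through the kinases Rock1 and Rock2. Of the 7 genes, 1 was higher and 1 was lower. Rhoa measured 4.42, 4.47 and 4.56 on the DDC injury arrays and 3.95, 4.09 and 4.03 on the no-injury arrays, without overlap. The difference was 0.44 ± 0.10 (SE), or 1.36-fold (limma adjusted p = 0.0369). A second Rhoa probe differed by -0.09 (limma adjusted p = 0.67). The call was lost with normexp (0.31, adjusted p = 0.0865), quantile normalization (0.28, adjusted p = 0.102), the authors' values (0.18, adjusted p = 0.269), the mean of both probes (0.18, adjusted p = 0.314), no filter (adjusted p = 0.0782) and without DDC injury replicate 3 (adjusted p = 0.0934).

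Rhob, an endosomal and stress-responsive relative, measured 0.67, 0.59 and 0.61 against 1.46, 1.55 and 1.51, both groups tight. It was lower by 1.86-fold (difference of -0.89 ± 0.09, limma adjusted p = 0.00569), and its second probe was lower as well (-0.49, limma adjusted p = 0.0252). Rhoc differed by 0.31 and Rac1, which drives lamellipodia, by 0.36 (limma adjusted p = 0.146 and 0.129). Both were higher on all injury arrays, and Rac1 was called without DDC injury replicate 1 (0.46, adjusted p = 0.0387). Of Rac1 a second probe was called higher (0.51, limma adjusted p = 0.0225). Cdc42, the regulator of filopodia and polarity, differed by 0.08 (limma adjusted p = 0.547), Rock1 by 0.35 (0.248) and Rock2 by -0.17 (0.36). Their second probes differed by 0.35, 0.22 and 0.87, and none was called (limma adjusted p = 0.0691, 0.628 and 0.152). The probes of Rock2 thus differed in sign.

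**Figure D5:**
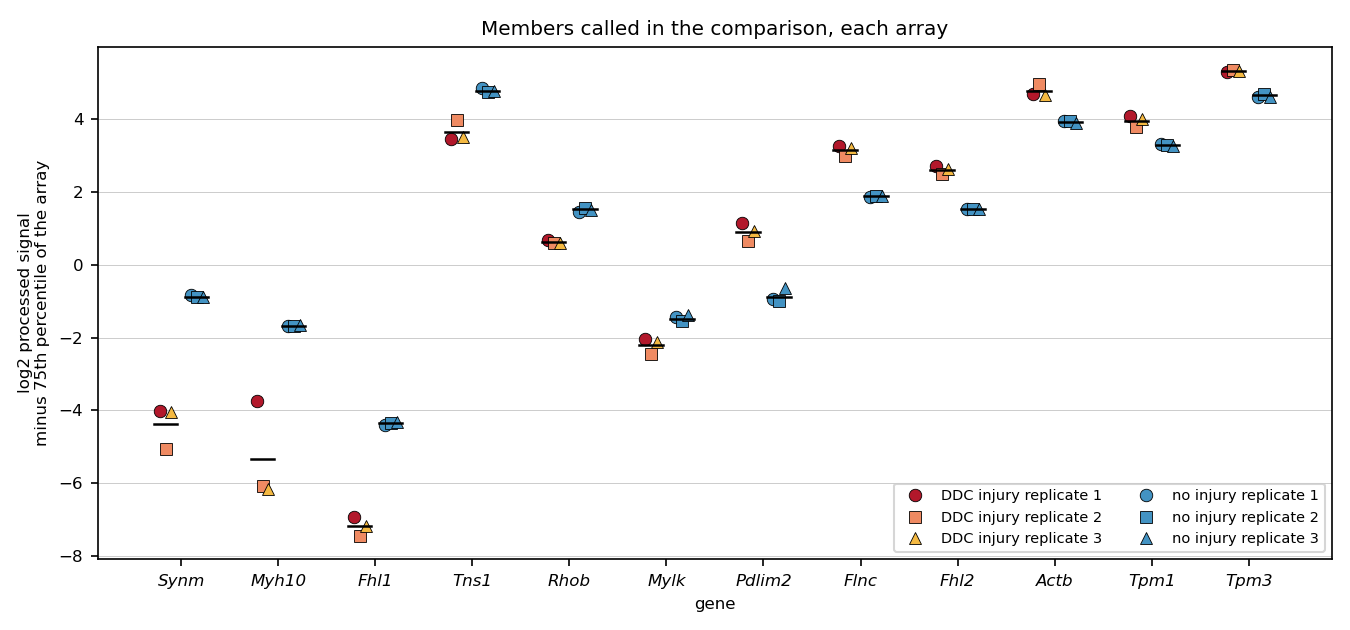
Level of 12 of the 15 called members on each of the 6 arrays, as log2 processed signal relative to the 75th percentile of the array, with a line at the mean of each group. In every gene drawn the DDC injury arrays (warm colours) and the no-injury arrays (blue) do not overlap. The largest differences between group means are those of Synm and Myh10, at -3.49 and -3.65.

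The calls of Actb, Flnc, Pdlim2, Fhl2, Synm and Rhob were kept under 14 of 16 alternative settings. The other 2 settings each left 1 no-injury sample, either without no-injury replicate 2 or with the 3 no-injury arrays averaged, and there Fhl1 was the only member called. Over all settings the differences ran from 0.64 to 1.08 for Actb, 1.15 to 1.35 for Flnc, 1.61 to 1.93 for Pdlim2, 0.90 to 1.15 for Fhl2, -3.67 to -2.63 for Synm and -0.95 to -0.69 for Rhob.

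Further genes of the same machinery were read from lists, which are described by counts, to be read beside the 17.7% of all tested genes called higher and the 15.8% called lower. In the list of actin nucleation, capping and turnover, 16 of 44 tested genes were higher and 5 were lower, with a median difference of 0.32. Diaph3, a formin, rose by 3.79 on the log2 scale (limma adjusted p = 0.00118) and Capg, which caps filament ends, by 2.78 (limma adjusted p = 0.00227). Vil1, the bundling protein of microvilli, and the formin Daam1 fell by 1.71 and 1.16 (limma adjusted p = 0.00542 and 0.0146).

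In the focal adhesion list 3 of 30 were higher and 8 lower, with a median of -0.11. Parvb and Vasp rose by 2.01 and 0.84 (limma adjusted p = 0.00141 and 0.00757), while Lims2, or PINCH-2, and Trip6 fell by 5.19 and 2.10 (limma adjusted p = 0.000615 and 0.00579). Lims2 measured -3.80, -3.62 and -3.34 against 1.65, 1.58 and 1.59.

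Of 19 other myosin genes 4 were higher and 4 lower, with a median of -0.20. Myo10, the myosin of filopodia, and the light chain Myl6b rose by 1.52 and 1.48 (limma adjusted p = 0.00841 and 0.00808), and Myo5b, a vesicle motor, and Myo18a fell by 1.40 and 0.61 (limma adjusted p = 0.0128 and 0.0236). Of 9 other intermediate filament, lamin and linker genes 4 were higher and none was lower by limma (1 at an unadjusted p under 0.05), with a median of 0.30, led by Bfsp1 at 2.65 and lamin B1 (Lmnb1) at 1.90 (limma adjusted p = 0.0115 and 0.00307). Srf and its coactivator genes Mrtfa and Mrtfb were not called, with differences of 0.11, 0.34 and 0.01 (limma adjusted p = 0.527, 0.184 and 0.928), and the coactivator gene Myocd was not tested. Ankrd1, a muscle ankyrin repeat protein listed with them that is no coactivator, fell by 0.98 (limma adjusted p = 0.00583). Without no-injury replicate 2 these 5 lists held between 0 and 2 calls in each direction.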

How the data were processed

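RNA of 6 cultures was hybridised to 1-colour Agilent arrays of design 026655. Per the file headers, the deposited values are intensity units from Feature Extraction 11.0.1.1, background-subtracted and detrended per array. The deposited value table holds log2 values normalized by the authors (column medians 6.921 to 6.927), the signal they started from is not stated, and the submitters' processing notes name limma. The arrays' annotation is of mm9. Names came from RefSeq accessions (GRCm38.p6): of 39429 probes, 27234 had 1 symbol, 0 several and 12195 none.

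Outlier spots were left out, repeated spots averaged, and log2 processed signal centred on each array's 75th percentile. A gene's probe had the highest mean over 6 arrays and was tested if well above background on at least 3. Groups were compared in R 4.3.3 by the lmFit and eBayes functions of limma 3.58.1, with two-sided p-values, a prior of 1.35 degrees of freedom and Benjamini-Hochberg adjustment over all genes (over all probes for a gene's other probes). The fit was tested on simulated data with the same spread in both groups, and the few samples limit the precision. In the real data the median SD of all tested genes was 0.24 over DDC injury arrays and 0.05 over no-injury samples. The simulation does not cover that inequality. Members and lists were chosen with earlier results of these data known. The rule for full values took called members with a difference of at least 1 and no overlap, and Acta2, Des, Vim, Gfap, Actb, Myh11, Tagln, Cnn1 and Rhoa. Of other lists it took the 2 largest calls each way among genes passing the background flag on every array. Further array values were chosen after they were seen. Alternatives were normexp (offset 50, on the median signal where the mean signal was planned), quantile scaling, the authors' values, the filter, the probe rule, sample counting, scan and replicate blocks, and each array left out. Protein identity and probe sequences were not analysed here, and 1 list is not reported here.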

Additional observations from a re-analysis of the deposited data

How the results depend on the processing

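The counts of calls were computed again under 16 settings and the differences under 12 to 16, changing 1 choice at a time, or 2 where the replicate block or the scan block was fitted to all 6 arrays. Other probes and marker sums were not recomputed, and the replicate 1 count was under 4 settings. With 1 no-injury sample made of all 3 arrays, 342 genes were called higher and 206 lower (2761 and 2463 as reported), and of the members 0 were called higher and 1 lower, while limma gave 6 higher and 5 lower at an unadjusted p under 0.05. Leaving out 1 array at a time gave 350 to 3692 genes higher and 165 to 3145 lower, and 0 to 11 members higher and 1 to 7 lower. The lowest counts came without no-injury replicate 2, where 6 and 6 members had an unadjusted p under 0.05. Without DDC injury replicate 3 the members were 5 higher and 3 lower, and 21.7% of all tested genes were called. With quantile normalization 4 members were called higher and 5 lower, beside 33.5% of all tested genes called. Counted as 6 samples, 12 members were higher and 7 lower, with Rac1, Cnn3, Cald1 and Cnn2 added. In that setting 47.8% of all tested genes were called, against 33.4% as reported.

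Fitted to the 6 arrays with the replicate number as a block, 9 members were higher and 6 lower, the same 15 genes as reported. Of all genes 2838 were higher and 2725 lower. The deviations of same-numbered arrays correlated at 0.117, 0.0184 and 0.121 over 15430 genes, so the numbers were not taken to pair the samples, and 5 of 6 samples correlated best with their own number. With all 6 arrays counted and the scan as a random block (correlation 0.477) 9 members were higher and 5 lower, beside 29% of all tested genes called.

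No called member changed sign in any setting. Among members without a call the sign turned, or the difference came to 0, as follows, with the cause not tested. With normexp, which moved the median of all genes from -0.07 to 0.07, differences were 0.15 for Actg2, -0.02 for Tagln2, 0.16 for Pdlim3 and 0.18 for Pdlim5. With quantile normalization they were -0.16 for Tagln2, -0.01 for Tpm4, -0.09 for Flna, -0.17 for Vim and -0.06 for Cdc42. In the authors' values they were -0.22 for Tagln2, 0.00 for Flna, 0.11 for Pdlim5, -0.01 for Pdlim7, -0.18 for Vim and -0.12 for Cdc42. With all probes of a gene averaged Pdlim5 was at 0.54 (adjusted p = 0.0202 in limma, called) and Rock2 at 0.35, and with the scan block Vim was at -0.01. Leaving out 1 array at a time, differences ran from -1.17 to 0.00 for Actg2, -1.44 to 0.45 for Actc1, -0.05 to 0.15 for Tagln2, -0.87 to 0.11 for Fhl3, -0.10 to 0.14 for Vim and 0.00 to 0.59 for Nes. Signal over background limits Actc1, Actg2, Cnn1, Myl9, Pdlim3 and Fhl1, each near background on at least 1 DDC injury array.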
